A study of Mus musculus with 4 samples.

Results

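The regulatory T cell identity genes are a set of 10 genes by which regulatory T cells (Treg) are commonly recognised and which serve their function: Foxp3, Ikzf2, Il2ra, Ctla4, Tnfrsf4, Tnfrsf9, Tnfrsf18, Ccr8, Klrg1 and Capg. They were taken by symbol from the deposited gene lists, and 10 of 10 were found among 32285 genes. No measured value entered their choice as the rule is written, although earlier results of these data were known when the set was drawn up. The genes were followed in single T cells and antigen-presenting cells (APCs) of tumor-draining lymph nodes from wildtype mice. One group was fed control chow and the other chow holding RGX-104, which activates the liver X receptor (LXR), a nuclear receptor for oxidised cholesterol. The RGX-104 chow began on day 3 after tumor cells were injected, and in both groups the nodes were taken on day 8. Both groups had been injected with tumor cells, and both sets of nodes were digested with collagenase and DNase and sorted for T cells and APCs. Each chow had 1 RNA library made with 10x 5′ chemistry and 1 T cell receptor library. The tumor line, the number of mice and whether nodes were pooled are not given in the sources used here, so a difference between chows could not be told apart from a difference between libraries.

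Foxp3 encodes the transcription factor that sets and holds the Treg lineage, and Ikzf2 encodes Helios, a zinc finger factor found in most thymus-derived Treg. Treg take up interleukin-2 through a receptor whose high-affinity chain is encoded by Il2ra, and they restrain dendritic cells through CTLA-4, which removes the costimulatory ligands CD80 and CD86. The TNF receptors OX40, 4-1BB and GITR (Tnfrsf4, Tnfrsf9 and Tnfrsf18) pass costimulatory signals to NF-kB, while Ccr8, Klrg1 and Capg are typical of activated Treg in tissues and tumors.

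Counts are unique molecular identifiers (UMIs), each standing for 1 captured transcript. Levels were expressed as CPM, the UMIs of a gene for every 1000000 UMIs of all genes in the same cells of the same library. With 1 library per chow no test between chows was possible. A ratio is RGX-104 over control, and its 95% interval, like that of every share, covers counting error only; UMIs gather in single cells, so these intervals are too narrow even for that. A gene counted as measured in a set of cells with at least 50 UMIs over both libraries, and as lower or higher past 1.5-fold.

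The control library held 7346 barcodes and 31530931 UMIs, and the RGX-104 library 8671 barcodes and 38480769 UMIs. The authors' tables named 2099 and 1995 of these as T cells and 782 and 949 as APCs, among them 97 Treg in control and 79 in RGX-104. The libraries had 95 barcodes in common, and no barcode was a Treg in both. Median depth in Treg was 5110 UMIs in control and 5139 in RGX-104, and the mitochondrial share was 2.57% and 2.63%. The LXR target Abca1, a cholesterol exporter, stood at 18.7 CPM in control Treg and 188 CPM in RGX-104 Treg, a ratio of 10.0 (5.50 to 20.05).

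The cells named Treg carried the genes that define them. An 8-gene Treg marker list, of which 6 are also members here, summed to 5656 CPM in control Treg and 5349 CPM in RGX-104 Treg, against 369 and 332 CPM in the other T cells. Each Treg held UMIs of a median of 7 of the 10 members in either library, and 88 of 97 and 76 of 79 cells held at least 5. Of the 20 and 17 Treg with no Foxp3 UMI, 16 and 15 still held at least 5 members. Markers of other cells were also present. Cd8b1 was detected in 7.22% of control and 20.3% of RGX-104 Treg, and Cd8a in 1.03% and 2.53%. By level, Cd8b1 stood at 15.6 and 35.3 CPM and Cd8a at 14.1 and 3.72 CPM. B cell markers summed to 28.1 and 50.2 CPM with none of the 5 at 0, against 38.8 and 35.5 CPM in the other T cells. Myeloid and dendritic markers summed to 590 and 753 CPM, led by Cd74 with Itgax at 0. In the other T cells they summed to 266 and 381 CPM. The part of all these markers in the results was not tested. A set of values leaves out the cells that carried B cell or myeloid transcripts (33 of 97 and 42 of 79 Treg). These values are given where they ended a call or moved a value by over 1.5 times, and for Ctla4 and Capg.

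The promoter windows that held a match to a searched motif are shown, since they carry the letters by which nuclear receptors, NF-kB and AP-1 are known to bind. They were picked by that match and not by how the genes moved. Each is the 250 bases before an annotated start site, from RefSeq on GRCm38.p6, plus strand, 5′ to 3′, with motif matches in capitals. Of the 10 members, 8 had an entry, with 10 windows, of which 5 held a match. No match was found for Ctla4, Tnfrsf4 and Tnfrsf18 or at the first listed start of Foxp3 and of Tnfrsf9. The searches were made on both strands, and the capitals mark AGGTCA, the half-site bound by many nuclear receptors, GGG and CC set 5 bases of any kind apart, an NF-kB pattern, and TGANTCA, the AP-1 pattern. The forkhead pattern TGTTTAC, found in 3.16% of windows, was searched as well and had no match in any of the 10.
Foxp3, second listed start, chrX:7580233-7580482: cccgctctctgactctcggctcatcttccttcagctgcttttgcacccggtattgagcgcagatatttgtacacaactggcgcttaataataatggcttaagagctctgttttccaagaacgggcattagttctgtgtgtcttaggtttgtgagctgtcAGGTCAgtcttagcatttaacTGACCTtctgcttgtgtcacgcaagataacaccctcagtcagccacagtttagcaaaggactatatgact
Il2ra, chr2:11642542-11642791: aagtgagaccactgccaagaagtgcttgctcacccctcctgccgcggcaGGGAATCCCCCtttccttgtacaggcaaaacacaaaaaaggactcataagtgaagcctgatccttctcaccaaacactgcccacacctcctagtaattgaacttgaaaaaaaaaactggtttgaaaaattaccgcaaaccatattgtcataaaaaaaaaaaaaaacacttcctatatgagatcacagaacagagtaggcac
Ccr8, chr9:120091883-120092132: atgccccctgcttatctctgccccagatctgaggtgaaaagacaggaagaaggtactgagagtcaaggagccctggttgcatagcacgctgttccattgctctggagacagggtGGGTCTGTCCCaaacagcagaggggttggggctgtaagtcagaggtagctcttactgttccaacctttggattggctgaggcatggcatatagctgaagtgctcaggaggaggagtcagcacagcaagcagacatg
Capg, chr6:72549397-72549646: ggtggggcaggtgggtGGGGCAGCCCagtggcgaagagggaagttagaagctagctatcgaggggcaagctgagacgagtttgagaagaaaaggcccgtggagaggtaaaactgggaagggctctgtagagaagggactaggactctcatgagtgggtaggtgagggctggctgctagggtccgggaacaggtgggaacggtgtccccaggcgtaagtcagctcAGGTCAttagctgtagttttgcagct
Tnfrsf9, second listed start, chr4:150927749-150927998: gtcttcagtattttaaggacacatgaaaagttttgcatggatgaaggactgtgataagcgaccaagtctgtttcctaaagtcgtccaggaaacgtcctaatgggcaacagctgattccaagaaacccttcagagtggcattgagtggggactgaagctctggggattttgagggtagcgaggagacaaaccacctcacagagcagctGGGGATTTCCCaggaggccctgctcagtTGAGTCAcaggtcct
The second Foxp3 window held AGGTCA 91 bases before the start and its reverse complement 70 bases before it. Capg held AGGTCA 26 bases before its start and an NF-kB match 234 bases before it. In Il2ra the NF-kB match lay 201 bases before the start, in Ccr8 136 bases and in the second Tnfrsf9 window 43 bases, with an AP-1 match 15 bases before the start. The NF-kB letters overlap themselves on the opposite strand in Il2ra, Ccr8, Capg and Tnfrsf9, so 1 capital run can hold several matches. These patterns are common: AGGTCA occurred in 14.0% of 32817 promoter windows of this length, the NF-kB pattern in 45.8% and TGANTCA in 6.75%. A pair of AGGTCA half-sites 4 bases apart, the arrangement LXR prefers, occurred in 0.0152% and in none of the members' windows. A match is a description of the letters, and binding was not measured.

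In control nodes and in RGX-104 nodes alike, each of the 10 genes had its highest level in Treg among the 8 T cell types with 50 or more cells in both libraries, and the Treg interval did not overlap that of the next type. The authors' names may rest on some of these genes, so this is a description of the annotation. Follicular helper T cells (Tfh), which help B cells in germinal centres, came next for 9 of 10 members in both libraries, all but Klrg1. Below Tfh, the order differed between genes and most neighbours overlapped. Ikzf2 was an exception, with the CD8_03 cells at 144 CPM in control against 124 CPM in RGX-104, close below Tfh at 194 and 192 CPM and above the 5 types that followed. Klrg1 had at most 1 UMI per library in any compared type other than Treg. The types with fewer cells were left out of this order, and some stood above Tfh. For Foxp3 in control, Cytotoxic T cells stood at 98.5 CPM and Tfh at 12.4 CPM. Capg in control was at 759 CPM in gamma delta T cells, above Treg at 737 CPM. Klrg1 in RGX-104 was at 56.8 CPM in Cytotoxic T cells, above Treg at 54.0 CPM. For no other member or library did these types pass Treg.

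**Figure D1:**
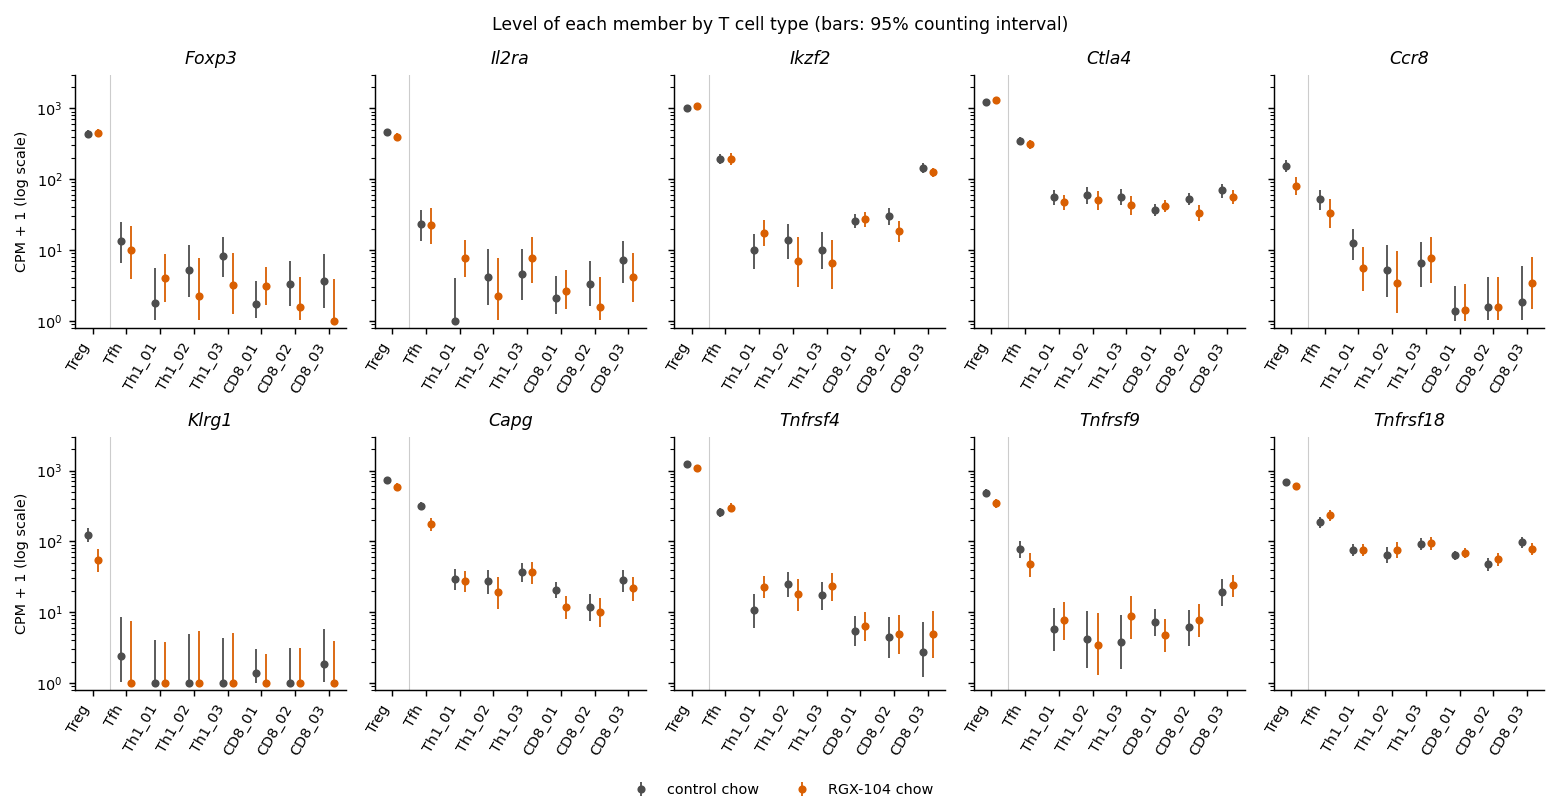
Level of each of the 10 genes in the 8 compared T cell types, 1 panel per gene. The vertical axis is CPM plus 1 on a log scale, points are the control and RGX-104 libraries and bars are 95% counting intervals. Treg stand highest in each panel, and Tfh come next in all panels but Klrg1.

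Over all annotated T cells, 3 of the 10 genes were lower in the RGX-104 library past 1.5-fold, namely Ccr8, Klrg1 and Capg, where 1.66% of 10214 measured genes were that much lower. None was higher, where 2.92% of genes were. The median log2 ratio of the members was -0.26, beside -0.01 over all measured genes. Within Treg alone, 2 of 10 were lower, Ccr8 and Klrg1, and none higher, where 7.51% of 3660 measured genes were lower and 4.59% higher. The members' median there was -0.21, beside -0.04 over all genes. In the T cells other than Treg, 2 of 9 measured members were lower, Foxp3 and Capg, and none was higher, against 1.67% and 3.12% of 10063 genes. Their median was -0.23, beside 0.00. Ccr8 and Klrg1 were thus lower past 1.5-fold within Treg, Foxp3 outside Treg, and Capg, at 0.798 within Treg, past 1.5-fold outside them.

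**Figure D2:**
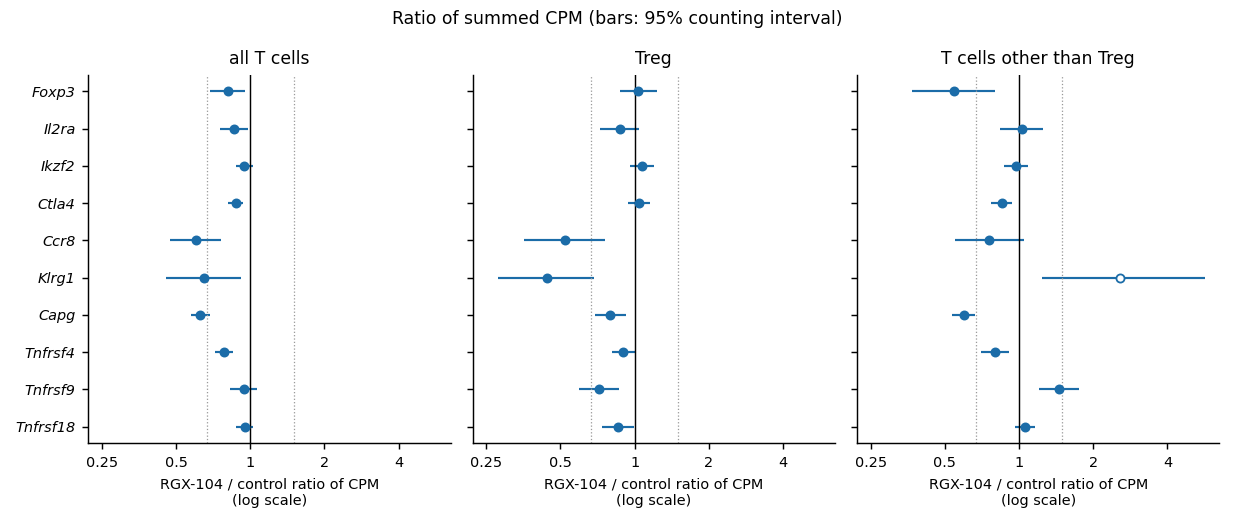
Ratio of RGX-104 to control CPM for the 10 genes in all T cells, in Treg and in the T cells other than Treg, on a log axis. Points are ratios, bars 95% counting intervals, dotted lines mark 1.5-fold in either direction, and an open point marks a gene with under 50 UMIs. Foxp3, Ikzf2 and Ctla4 lie near 1 within Treg, and Ccr8 and Klrg1 lie below the lower dotted line there.

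Treg made up 4.62% (3.76 to 5.61) of annotated T cells in control and 3.96% (3.15 to 4.91) in RGX-104, a ratio of 0.857 (0.628 to 1.17). Under 5 other definitions of the share the ratio ran from 0.647 to 0.923. The Treg share of all T cell UMIs was 5.59% and 4.75%. A lower pooled level can therefore come from fewer Treg transcripts in the pool as well as from less transcript in each type. The difference in pooled CPM was split exactly into 3 parts: the change of level within Treg, the change of level within the 11 other types, and the change in the types' shares of UMIs. Mean shares of the libraries served as weights. Each part is quoted below in CPM, RGX-104 minus control.

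The genes differed in how far their T cell transcripts came from Treg. Treg supplied 77.8% of Foxp3 UMIs in control and 84.9% in RGX-104, and 60.7% and 59.5% of Tnfrsf4 UMIs. They supplied 50.6% and 48.8% of Ikzf2 UMIs, 45.9% and 46.7% of Ctla4 UMIs and 34.8% and 37.6% of Capg UMIs. The largest shifts were those of Klrg1, from 87.6% to 50.9%, and of Tnfrsf9, from 61.0% to 39.4%. For Tnfrsf9 the Bcat1+ T cells, 58 cells in the RGX-104 library, held 33.7% of its UMIs there. Ccr8 stood at 51.0% and 37.7%, Il2ra at 59.2% and 51.0%, and Tnfrsf18 at 33.9% and 26.03%. Foxp3, Capg and Ctla4 thus came from Treg to a larger share in RGX-104, although their ratios over all T cells were below 1. Their ratios outside Treg were lower still. The intervals of these shares overlapped between libraries. They were 73.1% to 82.0% in control and 80.2% to 88.8% in RGX-104 for Foxp3, and 32.3% to 37.4% and 34.3% to 41.0% for Capg. For Ctla4 they were 43.6% to 48.3% and 44.2% to 49.3%.

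**Figure D3:**
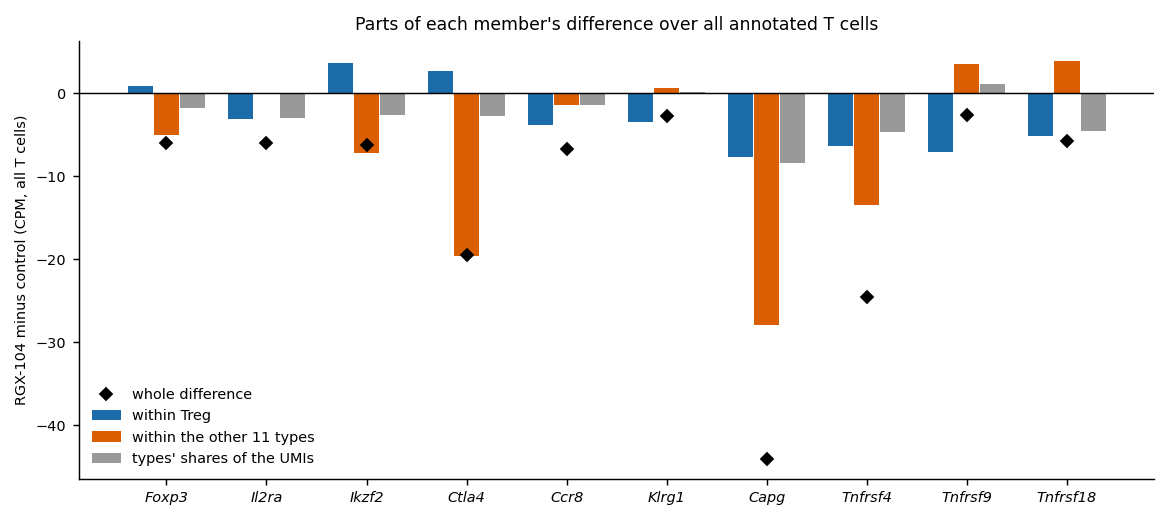
Split of the pooled CPM difference (RGX-104 minus control, all T cells) of each gene into the part within Treg, the part within the other 11 types and the part from the types' shares of UMIs. Bars are the parts in CPM and the diamond is the whole difference. Foxp3's whole difference of -5.95 CPM lies mostly within other types, and Klrg1's of -2.72 CPM within Treg.

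Foxp3 (chromosome X, 7579676 to 7595243, GRCm38) was as abundant in Treg of the RGX-104 library as in control Treg by summed UMIs. Its 277 UMIs in 97 control Treg gave 433 CPM, and its 241 UMIs in 79 RGX-104 Treg gave 448 CPM, a ratio of 1.04 (0.869 to 1.24). A Foxp3 UMI was seen in 79.4% of control and 78.5% of RGX-104 Treg. With each cell thinned to 2000 UMIs, which left out 7 control and 1 RGX-104 Treg, the shares were 56.7% and 47.4%. In CD8_01 cells, which should lack the gene, 0.431% and 1.23% of cells had a UMI at median depths of 5626 and 5588 UMIs. Monocytes had no Foxp3 UMI in 75 and 78 cells, which allows a share of cells with a UMI of up to 4% and 3.85% when 3 counts are taken as the limit of a count of 0.

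Over all T cells, Foxp3 stood at 31.1 CPM in control against 25.1 CPM in RGX-104, a ratio of 0.808 (0.689 to 0.948). Of the difference of -5.95 CPM, 0.816 CPM lay within Treg, -5.03 CPM within the other types and -1.74 CPM in the types' shares. The lower Treg share of UMIs alone came to -3.67 CPM. Outside Treg there were 79 Foxp3 UMIs in 30 cells of control and 43 UMIs in 24 cells of RGX-104, or 7.30 and 3.99 CPM, a ratio of 0.547 (0.368 to 0.803). These were 30 of 2002 and 24 of 1916 cells, or 0.508% and 0.423% of cells after thinning, so the difference lay in UMIs per positive cell more than in the number of positive cells. The thinned ratio outside Treg was 0.757.

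Most of these outside UMIs were in a pair of small types that held too few cells to compare. The Bcat1+ T cells (30 and 58 cells) held 25 and 14 Foxp3 UMIs in 4 and 3 cells, and the Cytotoxic T cells (16 and 44 cells) held 23 and 10 UMIs in 5 and 4 cells. Each of these Foxp3-positive cells carried at least 5 of the members. Without both types the ratio outside Treg was 0.647 (0.345 to 1.18), and the cell with most Foxp3 UMIs, a Bcat1+ T cell in either library, held 18 UMIs in control and 10 in RGX-104. Without that cell, a check chosen after seeing the data, the ratio was 0.543 (0.344 to 0.842).

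Ikzf2 (chromosome 1, 69531207 to 69687351), which encodes Helios, did not differ between chows in Treg beyond counting error. It gave 1006 CPM from 644 UMIs in control and 1075 CPM from 578 UMIs in RGX-104, a ratio of 1.07 (0.954 to 1.198). Helios transcripts were seen in 92.8% and 96.2% of Treg, and in 85.6% and 87.2% after thinning, against 1.33% and 2.56% of monocytes. Over all T cells the ratio was 0.944 (0.872 to 1.02). The parts within Treg and within other types had opposite signs, 3.60 and -7.23 CPM. In CD8_02 cells Ikzf2 was lower, at 28.8 CPM in control against 17.6 CPM in RGX-104, a ratio of 0.611 (0.377 to 0.976).

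Il2ra (chromosome 2, 11642792 to 11693194), the high-affinity chain of the interleukin-2 receptor, stood at 456 CPM in control Treg and 396 CPM in RGX-104 Treg, from 292 and 213 UMIs. The ratio of 0.869 (0.725 to 1.04) did not leave counting error, and 68.0% and 64.6% of Treg were positive. Thinned, the shares were 48.9% and 42.3%, against no positive monocyte in either library. Outside Treg the ratio was 1.02 (0.839 to 1.25), so that of the pooled difference of -6.05 CPM, -3.09 CPM lay within Treg and -2.99 CPM in the types' shares. In the latter, -3.55 CPM came from the lower Treg share and -3.51 CPM from fewer gamma delta T cells, offset by 3.12 CPM from more Bcat1+ T cells and 1.17 CPM from more Cytotoxic T cells. The gamma delta T cells, 65 in control and 37 in RGX-104, held 81 and 53 Il2ra UMIs, or 217 and 262 CPM.

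Ctla4 (chromosome 1, 60909025 to 60915832), the inhibitory receptor for CD80 and CD86, was again level in Treg by summed UMIs. There were 798 UMIs in control and 698 in RGX-104, which gave 1246 and 1299 CPM and a ratio of 1.04 (0.94004 to 1.15). It was detected in 96.9% and 94.9% of Treg, against 0 of 75 and 3 of 78 monocytes. After thinning it was detected in 81 of 90 and 60 of 78 Treg, a lower share in RGX-104. Without the Treg that carried B cell or myeloid transcripts the ratio was 1.43, above the main interval.

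In the T cells other than Treg, Ctla4 had 940 and 796 UMIs and a ratio of 0.851 (0.773 to 0.936). The pooled difference of -19.5 CPM lay almost wholly there. In CD8_02 cells it gave 51.9 CPM in control against 32.4 CPM in RGX-104, a ratio of 0.624 (0.440 to 0.880), so 2 of the 3 members measured in CD8_02, Ikzf2 and Ctla4, were lower, where 3.44% of genes were. Tfh stood at 346 and 310 CPM, with a ratio of 0.895 (0.733 to 1.09).

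Tnfrsf9 (chromosome 4, 150920155 to 150946104), the activation-induced receptor 4-1BB, had a ratio below 1 in Treg and above 1 in the other T cells, neither past 1.5-fold, and the difference between them was not tested. In Treg, 310 UMIs in control gave 484 CPM and 186 UMIs in RGX-104 gave 346 CPM, a ratio of 0.715 (0.593 to 0.860). In the other T cells there were 198 UMIs and 18.3 CPM in control and 286 UMIs and 26.5 CPM in RGX-104, a ratio of 1.45 (1.21 to 1.75). Over all T cells the parts nearly cancelled, with 44.3 and 41.7 CPM and a ratio of 0.942 (0.829 to 1.07). The split gave -7.14 CPM within Treg and 3.49 CPM within other types.

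The Treg sums did not differ through fewer positive cells. Tnfrsf9 was seen in 63.9% of control and 68.4% of RGX-104 Treg, against no control monocyte and 1.28% of RGX-104 monocytes. Treg with at least 5 Tnfrsf9 UMIs numbered 27 in control and 16 in RGX-104, while the median was 1 UMI per cell in control and 2 in RGX-104. After thinning, 37.8% and 46.2% were positive and the ratio was 1.01 (0.716 to 1.41), so the ratio below 1 did not hold at equal depth per cell. Outside Treg the ratio above 1 rested on the small types, among them the Bcat1+ T cells, with 67 UMIs and 156 CPM in control and 159 UMIs and 237 CPM in RGX-104. These cells were 1.43% of control and 2.91% of RGX-104 T cells, and without them and the Cytotoxic T cells the ratio was 0.921. In Tfh, Tnfrsf9 was lower, at 77.0 CPM in control against 46.6 CPM in RGX-104, a ratio of 0.605 (0.365 to 0.980).

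Tnfrsf4 (chromosome 4, 156013595 to 156016613), which encodes OX40, and Tnfrsf18 (156026322 to 156028894), which encodes GITR, are neighbours 9708 bases apart. In Treg, Tnfrsf4 gave 1220 CPM from 781 UMIs in control and 1098 CPM from 590 UMIs in RGX-104, a ratio of 0.900 (0.807 to 1.003). Positive Treg were 88.7% and 93.7%, or 72.2% and 79.5% after thinning, and 1.33% and 1.28% of monocytes had a UMI. In the other T cells the ratio was 0.800 (0.700 to 0.913), but 152 of 505 control UMIs came from 1 Bcat1+ T cell. Without the cell with most Foxp3 UMIs in each library, which in control was that same cell, the ratio was 1.11 (0.960 to 1.29). The OX40 ratio below 1 outside Treg thus rested on 1 cell, and in Tfh the gene stood at 257 and 299 CPM, with a ratio of 1.16 (0.9395 to 1.44).

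Tnfrsf18 in Treg gave 696 CPM from 446 UMIs in control and 597 CPM from 321 UMIs in RGX-104, a ratio of 0.857 (0.741 to 0.992). After thinning the ratio was 1.08, and 86.6% and 92.4% of Treg were positive, or 65.6% and 70.5% thinned. GITR transcripts were widespread outside Treg, with 29.6% and 31.1% of other T cells positive, and the ratio there was 1.05 (0.960 to 1.16). None of the 3 TNF receptors passed 1.5-fold in Treg.

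Ccr8 (chromosome 9, 120092133 to 120094906), a chemokine receptor of tissue and tumor Treg, was lower in RGX-104 Treg by 1.91-fold. There were 98 UMIs in control Treg and 43 in RGX-104, or 153 and 80.0 CPM, a ratio of 0.523 (0.356 to 0.755). The positive cells were nearly as frequent, 36 of 97 and 27 of 79, or 37.1% and 34.2%, and 22.2% and 16.7% after thinning. In CD8_01 cells 1 cell per library had a Ccr8 UMI. What differed was the upper end: 5 control Treg and no RGX-104 Treg held 5 or more UMIs, with the highest at 8 and 3 UMIs.

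The Ccr8 ratio was below 1 in several subsets of Treg, which overlap. Its level was higher in another subset, the few Klrg1-positive cells, where 10 UMIs gave 56.6 CPM in control and 13 gave 153 CPM in RGX-104. The ratio was 0.350 (0.181 to 0.638) in Treg in phase G1 and 0.681 (0.414 to 1.10) in those in S or G2M. Among Treg whose deposited clone frequency was 1 it was 0.504 (0.328 to 0.759), and among Treg without a Klrg1 UMI 0.349. With 4 and 2 UMIs at a frequency of 2 or more it was 0.736 (0.0665 to 5.13). In Treg without a receptor in the annotation, 10 and 7 UMIs gave 0.394 (0.127 to 1.15). After thinning, the ratio in all Treg was 0.600, with an interval of 0.282 to 1.22. Over all T cells the level was 16.7 CPM in control against 10.1 CPM in RGX-104, a ratio of 0.602 (0.473 to 0.763). The difference of -6.67 CPM held -3.78 CPM within Treg, -1.44 CPM within other types and -1.46 CPM from the types' shares. In Tfh, 37 and 18 UMIs gave 50.8 and 32.3 CPM, a ratio of 0.634 (0.340 to 1.14).

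Klrg1 (chromosome 6, 122270596 to 122282833), an inhibitory receptor for cadherins on late effector cells, had the lowest ratio of the 10 genes in Treg. Control Treg held 78 UMIs and 122 CPM, and RGX-104 Treg held 29 UMIs and 54.0 CPM, a ratio of 0.443 (0.279 to 0.686). Few cells carried it: 20 of 97 control Treg and 11 of 79 RGX-104 Treg, or 20.6% and 13.9%, and 12.2% and 8.97% after thinning. Of these, 6 and 2 held 5 or more UMIs, and the ratio after thinning was 0.9502 (0.434 to 2.05). The ratio was 0.904 in Treg in G1 and 0.279 in Treg in S or G2M. Without the Treg that carried B cell or myeloid transcripts it was 0.267 (0.0809 to 0.692).

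Outside Treg, Klrg1 had 11 UMIs in control and 28 in RGX-104, under the minimum for a comparison. Of the 28, 27 were in Cytotoxic T cells, whose control cells held 1 UMI. The pooled ratio was 0.649 (0.457 to 0.915), with -3.51 CPM within Treg and 0.668 CPM within other types. The Klrg1-positive Treg, at median depths of 7390 UMIs in control and 5221 in RGX-104, stood above the Klrg1-negative Treg, at 4392 and 5100 UMIs, in Tnfrsf18 in both libraries. Its levels were 962 against 595 CPM in control and 859 against 548 CPM in RGX-104. Capg stood at 1001 against 636 CPM in control and at 530 (386 to 709) against 599 CPM in RGX-104. Ccr8 in the Klrg1-positive Treg rested on 10 and 13 UMIs, at 56.6 against 190 CPM in control and 153 against 66.3 CPM in RGX-104.

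**Figure D4:**
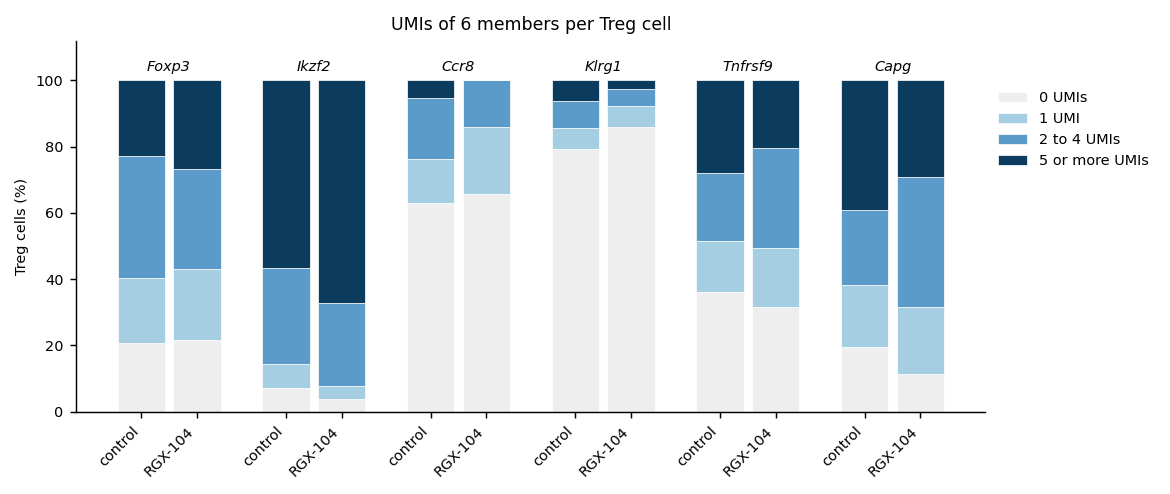
Share of Treg in percent with 0, 1, 2 to 4 or at least 5 UMIs of Foxp3, Ikzf2, Ccr8, Klrg1, Tnfrsf9 and Capg, for 97 control and 79 RGX-104 Treg. Cells with at least 5 Ccr8 UMIs number 5 in control and 0 in RGX-104, and those with at least 5 Tnfrsf9 UMIs 27 and 16, while the Foxp3 bars are alike.

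Capg (chromosome 6, 72538282 to 72562983), which encodes an actin filament capping protein, was lower past 1.5-fold outside Treg and nearer to level within them. In Treg, 472 UMIs in control gave 737 CPM and 316 UMIs in RGX-104 gave 588 CPM, a ratio of 0.798 (0.689 to 0.922). Positive Treg were 80.4% and 88.6%, or 65.6% and 67.9% thinned, while cells with 5 or more UMIs were 38 and 23. Without the Treg that carried B cell or myeloid transcripts the ratio was 0.995. In monocytes, which express Capg, 41.3% and 48.7% of cells were positive.

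The pooled Capg difference of -44.0 CPM lay mostly outside Treg, with -7.71 CPM within Treg, -27.9 CPM within other types and -8.43 CPM from the types' shares. Outside Treg, 884 UMIs gave 81.7 CPM in control and 524 UMIs gave 48.6 CPM in RGX-104, a ratio of 0.595 (0.533 to 0.664). Tfh held 230 and 96 UMIs, or 316 and 172 CPM, a ratio of 0.544 (0.424 to 0.694). With Ccr8 and Tnfrsf9, 3 of 7 measured members were lower in Tfh, where 5.43% of genes were. In CD8_01 cells Capg was 1 of 4 measured members and the one that was lower (2.94% of genes), with 53 and 26 UMIs and a ratio of 0.548 (0.329 to 0.893). The Cytotoxic T cells stood at 548 and 225 CPM and the gamma delta T cells at 759 and 534 CPM, in too few cells to compare. In the 3 Th1 types and in CD8_03 no measured member was lower past 1.5-fold, where 3.34% (Th1_01), 4.15% (Th1_02), 4.28% (Th1_03) and 3.56% (CD8_03) of genes were.

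Among 9894 genes, those whose level followed Foxp3 most closely over 16 points, 8 T cell types in each of the libraries, were Ncmap (Pearson r of 0.990 on log2 CPM), Arl5a (0.988), Lrrc32 (0.987), Il2ra (0.986) and Lamc1 (0.984). Lrrc32 encodes GARP, which holds latent TGF-beta on the Treg surface. For Ccr8 the closest were Capg (0.982), Sdf4 (0.974), Prdx1 (0.972), Tnfrsf4 (0.971) and Cd2 (0.971). Ikzf2 followed Foxp3 less closely, at 0.812. The points share a library and a depth, and the high level in Treg sets most of each value, so these are descriptions.

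Other genes of the Treg program went both ways in Treg. Of 34 listed genes, 31 were measured, 4 higher and 4 lower past 1.5-fold, where 4.59% of all measured genes were higher and 7.51% lower. The list's median log2 ratio of -0.04 equalled that of all genes. The 3 lowest were Pdcd1 (45 and 15 UMIs, ratio 0.397), which encodes the checkpoint receptor PD-1, Cd83 (289 to 164 CPM, 0.567) and Nt5e, the ectonucleotidase CD73 (0.647). Among the 3 highest were Gzmb, the cytotoxic protease granzyme B (226 to 417 CPM, 1.84), and Socs2, a target of STAT5 (1.68). In the other T cells, 29 were measured, 3 higher and 2 lower past 1.5-fold, where 3.12% of all measured genes were higher and 1.67% lower. The list's median there was 0.05.

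Genes of interleukin-2 signalling, which acts through Il2ra, showed 2 of 12 measured higher and none lower in Treg, with a median of -0.05. Of all genes measured in Treg, 4.59% were higher and 7.51% lower. Socs2, which is on both lists, Stat5b (1.501) and Socs3 (1.45) had the highest ratios, and Stat5a (0.804), Il2rg (0.851) and Pim1 (0.911) the lowest. NF-kB genes, downstream of the TNF receptors, had none of 10 measured past 1.5-fold in either direction in Treg, with a median of -0.26. Their lowest were Rela (0.685), the inhibitor Nfkbia (1451 to 1031 CPM, 0.710) and Traf1 (0.790), and their highest Relb (1.13), Nfkb2 (1.01) and Birc3 (0.929). In the other T cells the NF-kB median was 0.06, and the difference between Treg and the rest was not tested.

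Genes of resting T cells had 1 of 8 measured higher and 2 lower in Treg, where 4.59% of all measured genes were higher and 7.51% lower. Their median was -0.09. Ccr7, the receptor that guides cells into lymph nodes, was lowest, at 411 CPM in control against 171 CPM in RGX-104, a ratio of 0.417 (0.325 to 0.530). Klf2, which controls exit from nodes, stood at 294 and 143 CPM (0.488), and Lef1 at 0.921. Satb1 (1.76) and Il7r (1.05) had the highest ratios. In the other T cells none of 10 passed 1.5-fold, with a median of -0.13.

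Tnfrsf4, Il2ra and Tnfrsf18 were also present in dendritic cells. Among the 6 APC types compared they were highest in migratory conventional dendritic cells of type 1 (mcDC1), which bring antigen from the tissue to the node. In mcDC1, 166 in control and 214 in RGX-104 at median depths of 7686 and 8988 UMIs, 3 of 5 measured members were lower, where 5.6% of genes were. Tnfrsf4 gave 508 CPM from 730 UMIs in control and 320 CPM from 656 UMIs in RGX-104, a ratio of 0.630 (0.566 to 0.701). Il2ra stood at 101 and 59.97 CPM, with a ratio of 0.595 (0.464 to 0.761). Tnfrsf18 stood at 93.2 and 60.5 CPM, with a ratio of 0.649 (0.504 to 0.834). The fourth receptor, Tnfrsf9, lay nearer to level, at 150 and 127 CPM, a ratio of 0.851 (0.708 to 1.02).

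Elsewhere among APCs the direction differed. Tnfrsf9 in migratory Langerhans cells stood at 118 CPM in control against 162 CPM in RGX-104, a ratio of 1.38 (1.08 to 1.75). Capg in resident conventional dendritic cells of type 2 (rcDC2) gave 20 and 83 UMIs, or 26.5 and 50.6 CPM, a ratio of 1.91 (1.16 to 3.28), where 6.77% of genes were higher. In resident type 1 cells both measured members were lower past 1.5-fold (3.45% of genes), Ctla4 with 31 and 22 UMIs and Tnfrsf18 with 36 and 28 UMIs, with intervals that reached past 1. Over all APCs, 1 of 7 measured members was lower, Ctla4 with 39 and 32 UMIs (4.44% of genes), and none was higher (4.14%). Foxp3 had 6 and 1 UMIs in all APCs, Ccr8 0 and 2, and Klrg1 0 and 1.

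**Figure D5:**
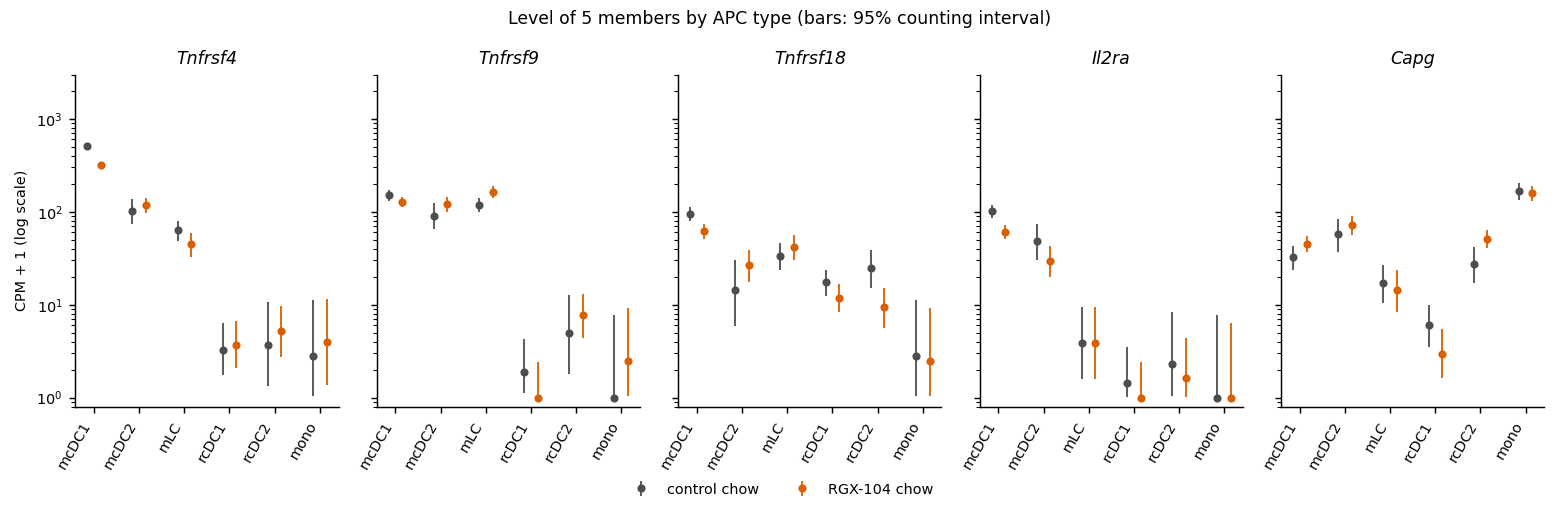
Level of Tnfrsf4, Tnfrsf9, Tnfrsf18, Il2ra and Capg in the 6 APC types that had 50 or more cells in both libraries. The vertical axis is CPM plus 1 on a log scale, points are the libraries and bars 95% counting intervals. Tnfrsf4 is highest in mcDC1, at 508 CPM in control against 320 CPM in RGX-104, and Capg in monocytes.

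The ligands of the members were read in the APCs. Cd86 and Cd80, bound by CTLA-4, stood at 92.2 and 121 CPM (ratio 1.31, 1.19 to 1.44) and at 46.8 and 54.8 CPM (1.17, 1.02 to 1.35). Tnfsf4, the OX40 ligand, had 15 UMIs in control and 61 in RGX-104, a ratio of 2.99 (1.68 to 5.66). Tnfsf9, the 4-1BB ligand, was level at 1.06 (0.9401 to 1.21), and Tnfsf18 had no UMI. Of the chemokines that bind CCR8, Ccl8 had 44 and 351 UMIs, a ratio of 5.86 (4.27 to 8.21), and Ccl1 had none in APCs. Ccl1 was found in T cells other than Treg, with 369 UMIs in control and 6 in RGX-104, but 346 of the 369 were in 1 Tfh cell, without which 23 were left. Of the cadherins bound by KLRG1, Cdh1 had 78 and 15 UMIs, a ratio of 0.141 (0.0754 to 0.247), and Cdh2 stood at 0.811 (0.670 to 0.982). In no compared APC type did a library hold over 5 Cdh1 UMIs or over 10 Ccl8 UMIs. Most Ccl8 UMIs of both libraries, and most Cdh1 UMIs of control, were thus in APC types not compared. The makeup of the APCs differed between libraries, with 57 mcDC2 in control and 104 in RGX-104, 27 and 52 macrophages, and 53 and 9 plasmacytoid dendritic cells. Its part in these pooled values was not tested.

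A T cell receptor chain was found for 86 of 97 control Treg and 64 of 79 RGX-104 Treg, and paired chains for 71 and 50. The paired Treg formed 70 and 49 clonotypes, of which 1 per library was in a pair of Treg, and none was shared with a cell of another type. The authors' deposited clone frequency, whose counting rule is not given in the sources used here, was at least 2 for 11 of 86 control and 7 of 64 RGX-104 Treg. Treg of deposited clone frequency 1 gave a Foxp3 ratio of 1.01, a Tnfrsf9 ratio of 0.725 and a Klrg1 ratio of 0.311, beside 1.04, 0.715 and 0.443 in all Treg.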

How the data were processed

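The study profiled T cells and APCs, sorted from tumor-draining nodes, with an RNA and a TCR library for each chow. Per the file headers, Cell Ranger 5.0.0 made the deposited UMI counts of genes by barcode. In the submitters' processing notes, mm10 and Seurat 5.0.3 are named. For every cell the authors' annotation tables give UMI and gene counts, the mitochondrial transcripts in percent, phase scores and a type. The TCR contig tables hold deposited counts of UMIs and reads.

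Each of 5825 annotated cells was matched to 1 barcode by its UMIs, genes (those in at least 3 barcodes) and mitochondrial percent. No further cell filter or doublet caller was applied; an alternative left out cells with B cell or myeloid transcripts. UMIs were summed per library and type. Ratios carry exact conditional binomial intervals, levels exact Poisson intervals and shares Clopper-Pearson intervals, all at 95%. Types were compared where both libraries had 50 or more of their cells. Likeness used log2 (CPM + 10). Scaling factors (TMM) came from edgeR 4.0.16 in R 4.3.3. The rest ran in python 3.11.15 with numpy 2.4.6, scipy 1.17.1 and pandas 2.3.3. The ratio intervals were tried on Poisson counts simulated from the summed Treg UMIs. Those counts follow the model of the intervals, so the trial could not show the effect of UMIs that gather in single cells. All 10 members were named, and of each gene list the 3 highest and 3 lowest ratios in Treg, except that some list genes are not reported here. The members and lists were chosen with earlier results of these data known.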

Additional observations from a re-analysis of the deposited data

Results flagged for a closer look

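Capg and Tnfrsf9 had counting intervals on opposite sides of 1 in different cell types under the same contrast. The differences between types were not tested, since each chow had 1 library. Capg stood below 1 in Treg (ratio 0.798), in the other T cells (0.595), in CD8_01 cells (0.548) and in Tfh (0.544), and above 1 in rcDC2 (1.91). Tnfrsf9 stood below 1 in Treg (0.715) and in Tfh (0.605), and above 1 in the other T cells (1.45) and in migratory Langerhans cells (1.38). The other T cells include the CD8_01 cells and Tfh. Some of these values moved in the checks. Tnfrsf9 came to 1.01 in thinned Treg, and to 0.921 in the other T cells without the Bcat1+ and Cytotoxic T cells. Capg in Treg came to 0.995 without cells with B cell or myeloid transcripts.

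Foxp3 was also detected in barcodes that the authors' tables do not name, which entered no level or ratio of the named cells. Values for some of these barcodes are given under other observations. A Foxp3 UMI was present in 57 of 4465 such barcodes in control (1.28%) and in 76 of 5727 in RGX-104 (1.33%).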

How the results depend on the processing

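Of 267 recomputed ratios of single members, 227 stayed within the main ratio's counting interval and 31 left it. The other 9 changed direction where the main interval left out 1. Where it held 1, a crossing of 1 was not counted as a change of direction, as for Foxp3 in Treg (0.955 when thinned). Scaling moved the median of all genes by at most 0.03 (log2). The cause was not tested in any of these. Thinned to 2000 UMIs, Klrg1 in all T cells came to 1.10, and Tnfrsf9 and Tnfrsf18 in Treg to 1.01 and 1.08; Tnfrsf18 in G1 Treg came to 1.07. Tnfrsf4 outside Treg came to 1.07 without the cell with most of its UMIs, 1.06 without the Bcat1+ and Cytotoxic T cells, 1.34 in cells without a Foxp3 UMI and 1.11 without the cell with most Foxp3 UMIs; Tnfrsf9 outside Treg came to 0.921 without the Bcat1+ and Cytotoxic T cells. Lower members over all T cells numbered 0 when thinned and 0 at 2-fold. In Treg they numbered 0 at a minimum of 200 UMIs, 0 when thinned, 1 at 2-fold, 1 without cells with B cell or myeloid transcripts and 1 without Klrg1-positive Treg. The minimum of 200 UMIs left out Ccr8 and Klrg1 whatever their ratios, and Treg without Klrg1 hold none of its UMIs. Ccr8 when thinned (0.600) and Klrg1 without cells with B cell or myeloid transcripts (0.267) were still past 1.5-fold. The thinned intervals of Ccr8 and Klrg1 in Treg both held 1, and the thinned Klrg1 ratio lay nearer to 1. Thinning thus could not show whether these differences hold at equal depth per cell. Outside Treg, lower members numbered 1 at 200 UMIs, by mean per-cell CPM and when thinned. They also numbered 1 without cells with B cell or myeloid transcripts and without Foxp3-positive cells, and 0 at 2-fold. At 200 UMIs and without Foxp3-positive cells, Foxp3 (79 and 43 UMIs outside Treg) was left out whatever its ratio. When thinned, its ratio outside Treg was 0.757, short of 1.5-fold. Higher members outside Treg numbered 1 at a minimum of 10 UMIs, 1 without cells with B cell or myeloid transcripts and 1 without Foxp3-positive cells. The median outside Treg moved to -0.042 at 200 UMIs, -0.035 when thinned, -0.053 without the top cell of each gene, -0.045 without Foxp3-positive cells and -0.079 without the cell with most Foxp3 UMIs. Of 60 parts of the CPM splits, 14 moved with the weights; the shares part took either sign for Ctla4 (-5.56 and 0.170), Klrg1 (0.813 and -0.584) and Tnfrsf9 (2.56 and -0.437), and the part within other types did so for Il2ra (0.576 and -0.523). The alternatives by G1 phase, Klrg1, Foxp3, small types and the top Foxp3 cell were chosen after seeing the data. No paired analysis was possible because each chow had 1 RNA library. Depth limits Klrg1 and Ccr8 most, with 107 and 141 UMIs over both libraries in Treg.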

Other observations

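Some barcodes without a name in the authors' tables carried the Treg genes too. Among those with a Foxp3 UMI, 34 in control and 46 in RGX-104 held at least 5 of the 10 members, at median depths of 7589 and 7337 UMIs. A T cell marker was present in 34 and 44 of them, a B cell marker in 12 and 24, and Cd74 in 29 and 45. At least 5% of UMIs were mitochondrial in 6 and 13 of them. Entry by a Foxp3 UMI and by at least 5 members bears on the level of each member here, so the following are values only. Klrg1 had 56 UMIs in control and 18 in RGX-104, a ratio of 0.302 (0.167 to 0.521). Tnfrsf9 stood at 148 CPM in control against 316 CPM in RGX-104, a ratio of 2.13 (1.56 to 2.93). Ccr8, with 28 and 38 UMIs, gave a ratio of 1.28 (0.762 to 2.16), and Tnfrsf4 gave 1.57 (1.31 to 1.90).

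In the named Treg, Ccr8-positive cells held more OX40 and 4-1BB transcripts than Ccr8-negative cells in both libraries, at median depths of 7082 against 3973 UMIs per cell in control and 5827 against 5048 in RGX-104. Tnfrsf4 stood at 1386 against 1052 CPM in control and at 1572 against 806 CPM in RGX-104. Tnfrsf9 stood at 603 against 364 CPM in control and at 483 against 262 CPM in RGX-104.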
